A study of Mus musculus with 24 samples.

Results

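The uterus of mice with surgically induced endometriosis, called eutopic because it stays in its normal place, was compared with the uterus of sham-operated mice 3 months after surgery. The comparison takes 8 of the 24 RNA sequencing libraries of the series, chosen by their labels: 4 libraries of eutopic uterus and 4 of sham uterus. Every mouse was operated on at 8 weeks of age, was mated with a stud male 3 months later, and gave tissue on pregnancy day 3.5, so both groups also share age and pregnancy. The labels give both groups the genotype Rosa26mTmG/+, a fluorescent reporter of Cre recombination, on a mixed C57BL/6 and SV129 background. The series text instead gives the mice with endometriosis as Pgrcre/+Rosa26mTmG/+, with Cre driven from the progesterone receptor gene. Which of the 2 is right is not known, and if the text is right, a Cre allele at Pgr cannot be told apart from the surgery. The labels call the mice with endometriosis subfertile and the sham mice fertile at this time. The question of the comparison is what differs in the uterus once fertility is reduced. The labels do not tie libraries to separate animals, so every p-value measures the spread between these libraries, which may be partly technical.

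On this day of mouse pregnancy the uterus is being prepared for the embryo to attach. Ovarian estrogen drives division and secretion in the epithelium, and progesterone, acting through its receptor PGR, stops epithelial division and turns on signals such as Ihh in the epithelium and Hand2 in the stroma below it. A brief further surge of estrogen then induces Lif in the glands, which opens the uterus to implantation. Endometriosis is known for progesterone resistance, in which progesterone targets respond poorly in the endometrium.

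The table held 4.59e+07 to 5.29e+07 counts in each eutopic and 4.69e+07 to 5.94e+07 in each sham library. Levels below are CPM, that is counts divided by the effective library size with its TMM factor, and differences are log2 of eutopic over sham with their standard error (SE). The label of uterus was met by the data: Hoxa10, a uterine homeobox gene, ran from 196 to 440 CPM, Krt8 of the epithelium from 104 to 314, and Myh11 of the smooth muscle from 1689 to 3949. Transcripts that define the embryo were near 0, with Pou5f1 at no more than 0.128 CPM, Nanog at no more than 0.129 and Cdx2 at 0 in all 8 libraries. The ovarian enzymes Cyp17a1 and Cyp19a1 stayed at or under 0.236 and 0.021 CPM, and the skeletal muscle myosins Myh1, Myh2 and Myh4 at or under 0.0363. Other genes listed for these tissues were present. Foxl2 and Star, listed for ovary, ran from 36.1 to 71.3 and from 5.58 to 12.3 CPM. Acta1 and Tnni2, listed for skeletal muscle, ran from 76.9 to 224 and from 8.89 to 18.9 CPM, and Ovgp1, listed for oviduct, from 1.47 to 49.7 CPM. The part of other tissue in the samples was not tested. In whole tissue, fewer cells of a type and less RNA per cell cannot be told apart.

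Sham library 4 stood apart from the other 7 libraries, and many results below are therefore given with and without it. This library had been singled out beforehand by its estrogen target and cell cycle genes, so the levels of those genes in it are no separate evidence. It held the highest level of the 8 for 5113 of 21208 genes tested (24.1%) and the lowest for 4751 (22.4%). Among the 14196 genes with a mean log2 CPM of at least 1 over the 8 libraries, 288 lay more than 2-fold above every other library in it and 275 more than 2-fold below. In each of the other 7 libraries these counts reached at most 25 and 19. Across genes, which are not independent replicates, its log2 CPM correlated with the other libraries at 0.955 to 0.967 (7 pairs), where the other 21 pairs ran from 0.977 to 0.990.

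The 5 genes described here as farthest above the others in sham library 4 also lay above all 8 uterine libraries of 1 month. Gjb2, which codes for the gap junction protein connexin 26, stood at 242 CPM in it and at 2.33 to 9.41 CPM in the other 15 uterine libraries of both times. Lcn2, the secreted iron-binding protein lipocalin 2 and an estrogen-induced gene of uterine epithelium, stood at 133 against 1.36 to 11.1 CPM. The other 3 of these 5 genes were Nrg1, a growth factor of the EGF family (47.0 against 0.913 to 14.1 CPM), Bpifb5, a secreted BPI-fold protein (65.4 against 1.13 to 15.7 CPM), and Crtac1, a cartilage acidic protein (40.4 against 0.342 to 3.8 CPM).

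The genes farthest below the others were at a small part of their usual level in this library, or at 0 counts. Angptl7, a secreted angiopoietin-like protein, stood at 3.22 CPM in sham library 4 and at 166 to 460 CPM in the other 15 uterine libraries. Rims3, a protein of the vesicle release machinery, stood at 1.07 against 72.6 to 208 CPM. Olah, a thioesterase of fatty acid synthesis, had 0 counts in it against 1.01 to 8.28 CPM elsewhere, and at this depth 3 counts would be 0.0551 CPM. Slc51a, a steroid and bile acid transporter subunit, was at 0.0735 CPM against 2.64 to 17.5, and Abcb5, an ATP-driven efflux pump, at 0.0368 against 3.58 to 25.2. Zfp979, a zinc finger gene, also had 0 counts in it, against 9.75 to 14.4 CPM in the other 7 libraries of 3 months, but 1 sham library of 1 month was as low, at 0.0367 CPM.

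Transcripts present in some of the 8 libraries and absent in others followed the same line. Taking a transcript as on at 0.8 CPM or more and off at 0.1 CPM or less, 32 transcripts had each of the 8 libraries either on or off, and 22 of these were off in sham library 4 alone. 12 of the 22 were protein coding. Among them was Areg, amphiregulin, a progesterone-induced growth factor of the luminal epithelium that marks the approach of implantation. It was at 1.18, 3.19, 6.91 and 7.85 CPM in eutopic libraries 1 to 4, at 5.20, 6.30 and 2.84 CPM in sham libraries 1 to 3 and at 0.0368 CPM in sham library 4.

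**Figure D1:**
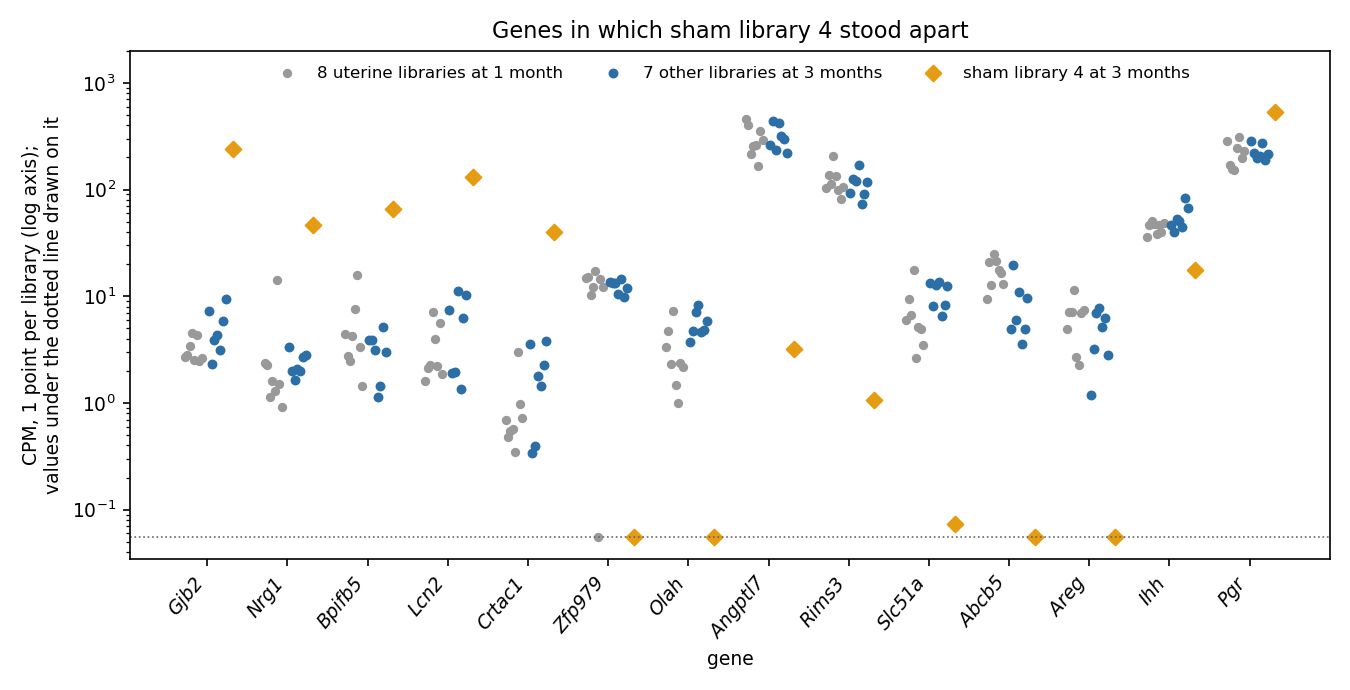
Level in CPM (log axis) of 11 genes farthest above or below the other libraries in sham library 4 and of Areg, Ihh and Pgr, with 1 point per uterine library. Grey points are the 8 libraries of 1 month, blue points the other 7 of 3 months and orange diamonds sham library 4, which lies outside both clouds for Gjb2 (242 CPM) and Angptl7 (3.22 CPM), while 1 grey point for Zfp979 lies as low as it does.

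No gene passed the test between eutopic and sham uterus. edgeR's quasi-likelihood test called 0 of 21208 genes (percent called: 0) at an adjusted p under 0.05, and 0 of 21542 genes (0%) without sham library 4. The smallest adjusted p was 0.379 with all libraries and 0.592 without that library. At an unadjusted p under 0.05 there were 1007 genes (4.75%), 424 higher and 583 lower in eutopic uterus, and 572 (2.66%) without sham library 4, 307 higher and 265 lower. Without sham library 1 in place of it the count was 2303, and again 0 were called. DESeq2 called 11 of 27440 genes (0.0401%) and limma voom 4 of 21208 (0.0189%). Without sham library 4 they called 12 of 22910 (0.0524%) and 3 of 21542 (0.0139%).

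The data bound most differences rather closely. Over the 14196 genes at a mean log2 CPM of at least 1, the median SE of the log2 difference was 0.15, and for 13003 of them (91.6%) the whole 95% interval lay within a 2-fold difference in either direction. Without sham library 4 this held for 13457 (94.8%). The median difference over all genes tested was -0.01 on the log2 scale, and 48.6% of genes were positive (0.00 and 50.8% without sham library 4). In 209 genes (0.985%) every eutopic library lay above every sham library, and in 168 (0.792%) every one lay below. Without sham library 4 the counts were 345 (1.6%) and 300 (1.39%).

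Among the 8 protein coding genes with the smallest p on the higher side, the largest difference was in Serpina3n (ENSMUSG00000021091.9), a secreted serine protease inhibitor known from acute phase and inflammatory responses. It was at 27.1, 74.3, 19.9 and 24.5 CPM in eutopic libraries 1 to 4 and at 3.02, 3.91, 2.84 and 6.71 CPM in sham libraries 1 to 4. All 4 eutopic libraries were high, eutopic library 2 most of all, and the groups did not overlap. The log2 difference was 3.15 ± 0.62, an 8.85-fold higher level with a 95% interval from 3.53 to 22.2, and the adjusted p was 0.518 in edgeR. DESeq2 called it with an adjusted p of 0.00131, and of 0.000998 without sham library 4, where the edgeR difference was 3.49 ± 0.71. The 4 sham libraries of 3 months lay below every uterine library of 1 month, where eutopic libraries held 84.4, 46.7, 47.5 and 58.1 CPM and sham libraries 73.6, 11.3, 12.5 and 14.6 CPM.

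Pde1c (ENSMUSG00000004347.18), a calmodulin-dependent phosphodiesterase that breaks down cAMP and cGMP, had an even sham group. Its sham libraries stood at 2.52, 2.18, 2.10 and 2.33 CPM, and its eutopic libraries at 7.36, 11.8, 22.2 and 28.5 CPM, so that the spread lay within the eutopic group. The log2 difference was 2.93 ± 0.53, or 7.64-fold (95% interval 3.49 to 16.8), with an adjusted p of 0.427 in edgeR. DESeq2 called it with an adjusted p of 8.23e-06, and of 0.00412 without sham library 4, where the difference was 2.94 ± 0.61. At 1 month it ran from 2.54 to 9.56 CPM in eutopic and from 2.44 to 8.64 CPM in sham uterus, and the groups overlapped there.

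Gdpd3, a glycerophosphodiester phosphodiesterase that makes lysophosphatidic acid, was at 19.3, 32.4, 24 and 27.7 CPM in eutopic and at 4.18, 4.66, 5.02 and 4.12 CPM in sham uterus. Both groups were tight and far apart, with a log2 difference of 2.52 ± 0.63 (edgeR, adjusted p = 0.993). It was called when the fit held only the 8 libraries of 3 months (edgeR, adjusted p = 0.0029), and not with the 16 uterine libraries, whose shared spread includes those of 1 month. At 1 month the gene ran from 5.39 to 29.8 CPM in eutopic and from 3.62 to 66.2 CPM in sham uterus, a range wider than the difference at 3 months.

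The other 4 protein coding genes called by DESeq2 with all libraries differed by less than 2-fold. Zfp868, a zinc finger gene, was at 30.6, 40.2, 35.1 and 40.3 CPM in eutopic and 20.8, 21.0, 23.2 and 19.7 CPM in sham uterus, a log2 difference of 0.79 ± 0.15 (DESeq2 adjusted p = 0.00212, and 0.0229 without sham library 4). Calr3, a calreticulin-like chaperone of the endoplasmic reticulum, was at 1.99, 2.52, 2.16 and 2.60 against 1.09, 1.32, 1.21 and 1.56 CPM, a difference of 0.84 ± 0.17 (DESeq2 adjusted p = 0.00202 and 0.000998). For both genes the lowest eutopic library stood above the highest sham library. Enox1, a cell surface NADH oxidase, stood at 6.97 to 7.95 CPM in eutopic and 5.19 to 5.98 CPM in sham uterus (0.42 ± 0.11), and Egr2, an immediate early transcription factor, at 3.33 to 4.23 and 1.77 to 3.07 CPM (0.84 ± 0.20). DESeq2 called Enox1 and Egr2 only with sham library 4 in the fit, with adjusted p-values of 0.00953 and 0.0488 against 0.0906 and 0.199 without it.

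The same 4 protein coding genes, Pde1c, Serpina3n, Zfp868 and Calr3, were among the 8 genes that DESeq2 called both with and without sham library 4. Over all fits of edgeR, DESeq2 and limma voom on the 16 or 15 uterine libraries, 17 distinct genes were called, of which 6 were protein coding and 11 were pseudogenes, other noncoding transcripts or immunoglobulin segments. Counts of a pseudogene can include reads of its near-identical parent gene and are uncertain. In 4 of the noncoding transcripts, chosen after their values were seen, sham library 4 sided with the eutopic group: Gm7335 was at 0.949 to 2.05 CPM in eutopic libraries, at 0.0164 to 0.0908 CPM in sham libraries 1 to 3 and at 0.956 CPM in sham library 4. Gm7809, Gm26862 and Mid1-ps1 had the same arrangement. In other called pseudogenes sham library 4 lay with the sham group. Gm5512, the transcript with the smallest p in edgeR (adjusted p = 0.379, and 0.592 without sham library 4), was at 1.52, 1.6, 1.28 and 1.88 CPM in eutopic and at 0.509, 0.315, 0.279 and 0.423 CPM in sham uterus. Its log2 difference was 2.03 ± 0.34, and 2.09 ± 0.38 without sham library 4, and DESeq2 and limma voom called it in both fits. Gm18180 was at 1.28 to 1.66 against 0.126 to 0.345 CPM.

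Of the 8 named genes with the smallest p on the higher side, all 8 had groups that did not overlap, a property that goes with the choice by p. Besides those above they were Xaf1 and Nptx1. Xaf1, an interferon-induced promoter of apoptosis, was at 67.4, 38.5, 45.5 and 53.6 CPM in eutopic and 33.7, 26.9, 37.2 and 24.3 CPM in sham uterus (0.75 ± 0.20). Nptx1, a pentraxin first described in neurons, was at 57.5, 43.7, 42.8 and 39.5 against 35.1, 23.4, 27.7 and 14.1 CPM (0.87 ± 0.23). In both genes sham library 4 was the lowest of the 8, and without it the differences were 0.65 and 0.68.

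On the lower side 4 of the 8 named genes did not overlap. Mri1, an isomerase of the methionine salvage pathway, was at 14.1, 16.1, 19.9 and 21.5 CPM in eutopic and 25.9, 32.0, 32.7 and 27.1 CPM in sham uterus, a log2 difference of -0.72 ± 0.19 (-0.76 without sham library 4). B3gnt3, a glycosyltransferase that extends sugar chains on mucin-type glycoproteins, was at 14.1, 13.0, 12.7 and 10.8 against 22, 19.4, 19.6 and 31.8 CPM (-0.87 ± 0.24, and -0.68 without that library). Ide, the insulin-degrading enzyme, was at 108, 68.2, 89.9 and 74.7 against 196, 124, 112 and 124 CPM (-0.71 ± 0.22, and -0.76 without it). In these genes every eutopic library lay below every sham library, as it did for the transmembrane protein gene Tmem267 (4.39 to 5.02 against 5.54 to 11.2 CPM).

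The other lower genes overlapped or rested on sham library 4. Gjb2 had a log2 difference of -3.87 ± 1.06 that was -0.46 ± 0.38 without that library, since the other sham libraries stood at 3.16, 5.88 and 9.41 CPM and the eutopic ones at 7.28, 2.33, 3.91 and 4.33 CPM. Grk3, a kinase that desensitises G protein-coupled receptors, had -0.52 with it and -0.33 without, a ratio of over 1.5 times. Hebp2, a heme-binding protein, had -0.78 and -0.53, and Tmem221, a transmembrane protein, had -0.78 and -0.60.

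Leaving out sham library 4 brought other genes among those with the smallest p. Ptx3, a pentraxin of innate immunity and of the cumulus matrix, was at 3.77, 6.01, 5.41 and 5.45 CPM in eutopic and 3.67, 2.52, 2.74 and 0.441 CPM in sham uterus, with a log2 difference of 1.14 ± 0.39 that was 0.79 ± 0.21 without that library. Khdc1a, of a gene family active in oocytes and early embryos, was at 3.31, 1.58, 6.09 and 6.75 against 6.05, 34.4, 45.1 and 1.49 CPM, and the high level stood in sham libraries 2 and 3 alone. Scoc, a Golgi protein that takes part in autophagy, was at 16.2, 20.4, 22.5 and 24.8 against 31.6, 33.1, 33.1 and 21.5 CPM. Its difference was -0.51 ± 0.16, and -0.64 ± 0.15 without sham library 4, the one sham library within the eutopic range. Adat2, a tRNA adenosine deaminase, stood higher by 0.54 ± 0.15 (0.58 without that library), the fibroblast growth factor binding protein Fgfbp3 lower (-0.65 ± 0.23, and -0.78), and Akr1b7, an aldo-keto reductase that makes prostaglandin F2alpha, lower as well (-0.80 ± 0.27, and -0.92). Each of these 6 had an adjusted p of 0.993 in edgeR with all libraries and 1 without sham library 4.

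**Figure D2:**
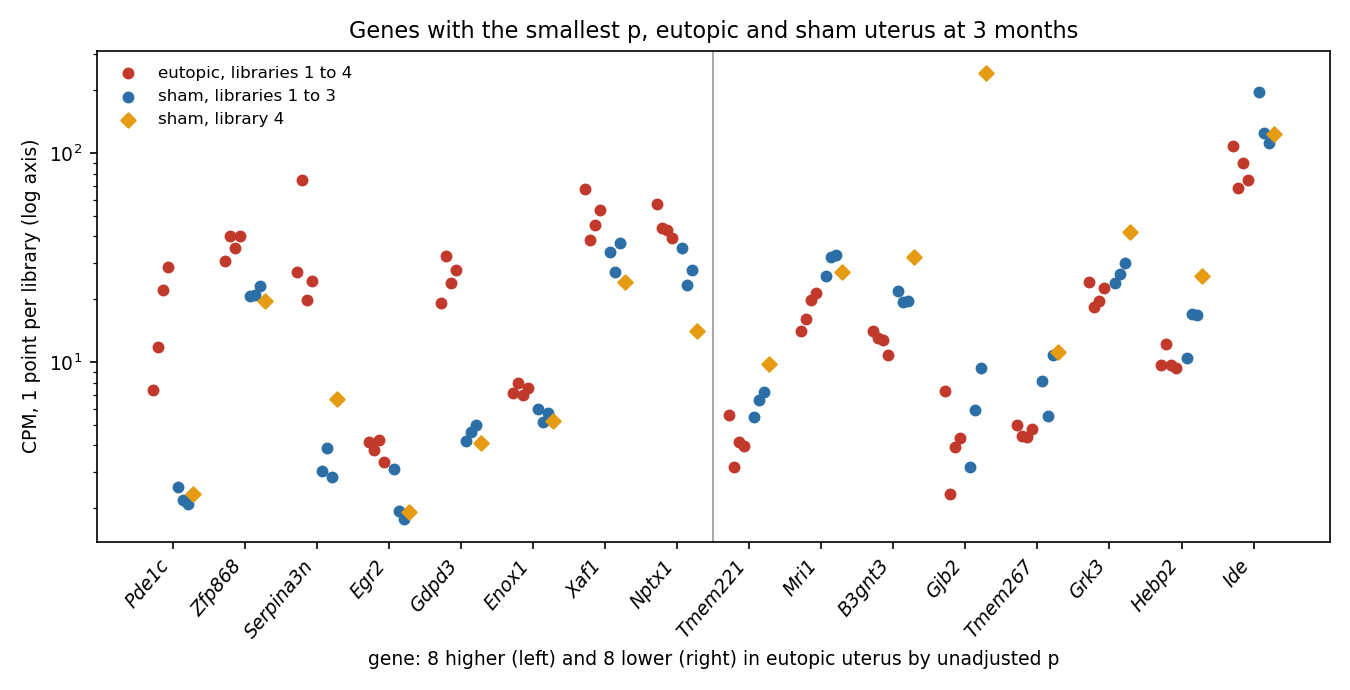
Level in CPM (log axis) of the 8 protein coding genes with the smallest p among those higher and the 8 among those lower in eutopic uterus, 1 point per library. Red points are eutopic libraries 1 to 4 in order, blue points sham libraries 1 to 3 and orange diamonds sham library 4, and the 8 genes on the left do not overlap while Gjb2 on the right is set apart by the 1 diamond at 242 CPM.

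The receptors and signals that the uterus needs for implantation did not separate the groups. Pgr, the progesterone receptor, was at 283, 219, 199 and 208 CPM in eutopic libraries 1 to 4 and at 272, 189, 215 and 537 CPM in sham libraries 1 to 4. Only sham library 4 lay outside the range of the others, and the log2 difference of -0.42 (95% interval -1.03 to 0.19) was 0.01 without it (-0.45 to 0.48). Esr1, the estrogen receptor alpha, was at 683, 449, 546 and 410 against 558, 453, 468 and 769 CPM, and its difference of -0.11 was 0.08 without sham library 4.

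Ihh, the hedgehog ligand that epithelial cells send to the stroma under progesterone, was at 46.6, 39.9, 52.8 and 51.2 CPM in eutopic and at 44.5, 82.9, 67.7 and 17.8 CPM in sham uterus. Its sham libraries spread widely, with libraries 2 and 3 above and library 4 below all eutopic ones. The difference was -0.16 ± 0.30, and -0.45 ± 0.18 without sham library 4, with an unadjusted p of 0.0218 and an adjusted p of 1 in edgeR. Hand2, the stromal transcription factor that holds back epithelial growth, was at 74.5, 95.7, 83.3 and 89.0 against 88.2, 72.9, 64.5 and 58.9 CPM, with overlap through sham library 1 alone. Its difference was 0.27 ± 0.13, and 0.19 ± 0.13 without sham library 4.

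Lif, the cytokine of implantation, was at 12.7, 17.3, 3.83 and 3.01 CPM in eutopic and at 8.48, 13.3, 14.4 and 5.79 CPM in sham uterus. Eutopic libraries 1 and 2 were in the upper part of the sham range or above it, while libraries 3 and 4 were below every sham library, so the spread lay within the group, and the 95% interval ran from -1.15 to 0.78 (-1.39 to 0.62 without sham library 4). Foxa2, the transcription factor of uterine glands, ran from 14.6 to 23.1 in eutopic and from 11.6 to 24.7 CPM in sham uterus. Ltf, lactoferrin, an estrogen-induced secretory protein, was at 197, 38.3, 38.9 and 244 against 26.7, 204, 277 and 255 CPM, low in eutopic libraries 2 and 3 and in sham library 1 and high in the other 5. All 7 genes of this panel had an adjusted p of at least 0.993 in edgeR.

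**Figure D3:**
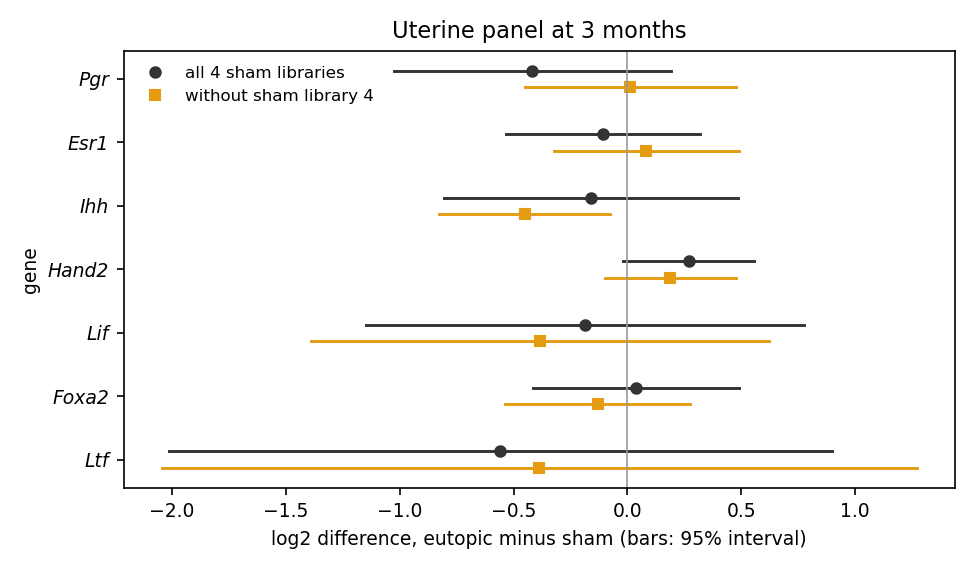
Log2 difference between eutopic and sham uterus (horizontal axis) with its 95% interval for the 7 genes of the uterine panel, with all 4 sham libraries (black circles) and without sham library 4 (orange squares). The intervals include 0 for every gene with all libraries, and Pgr moves from -0.42 to 0.01 without sham library 4 while Ihh moves from -0.16 to -0.45.

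Lists of genes for uterine function and cell types held 671 distinct genes among those tested, and 0 of them were called in edgeR in either fit. At an unadjusted p under 0.05 there were 70 of them (10.4%, against 4.75% of all genes), and 25 (3.73%, against 2.66%) without sham library 4. Groups without overlap were found in 4 list genes on the higher side (0.596%, against 0.985% of all genes) and 4 on the lower side (0.596%, against 0.792%). Without sham library 4 there were 5 (0.745%, against 1.6%) and 6 (0.894%, against 1.39%). The 4 higher were Ccno, a regulator of cilia formation, Bnip3, a mitophagy receptor, Egr2 and Il13ra2, the decoy receptor for interleukin 13. Ccno ran only from 0.0551 CPM, the level of 3 counts, to 0.406 CPM, so its difference is uncertain. The 4 lower were Casq1, a calcium store protein of muscle, and mt-Atp8, mt-Co2 and mt-Atp6, mitochondrial transcripts that were all under 1 CPM. The mitochondrial transcripts mt-Co1 and mt-Cytb stood at 9046 to 14302 and 4864 to 8058 CPM. The low levels of mt-Atp8, mt-Co2 and mt-Atp6 are therefore uncertain as measures of expression, and how reads were assigned to them was not tested. Sham library 4 was the highest of the 8 libraries for 184 of the 671 genes and the lowest for 205, and 10 of 39 list medians changed sign without it.

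Cell cycle genes separated sham library 4 from the other 7 libraries rather than eutopic from sham uterus. That library had been singled out partly by these genes, so their height in it was known beforehand. All 35 tested cell cycle genes had a lower mean in eutopic than in sham uterus, with a median log2 difference of -0.33, but all 35 were also highest in sham library 4, by a median of 0.96 over the mean of the other 7. Without it 6 of 35 were positive and the median was -0.05, near that of all genes (0.00). Mki67, the antigen Ki-67 of dividing cells, was at 166, 119, 171 and 173 CPM in eutopic and at 228, 136, 136 and 296 CPM in sham uterus. Mcm2, a subunit of the replication helicase, was at 44.0, 30.4, 38.9 and 41.2 against 47.8, 41.2, 38.9 and 105 CPM, and Ccne1, the cyclin of entry into S phase, at 6.06, 6.05, 4.17 and 6.81 against 6.61, 7.04, 7.72 and 12.6 CPM. For Mcm2 the difference of -0.59 ± 0.24 was -0.14 ± 0.13 without sham library 4.

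Since these genes moved together in 1 library, their promoters are shown for 3 members: Top2a, the topoisomerase that untangles replicated DNA, Mki67 and Mcm2. These 3 were taken from the members that carry both motifs marked below. The motifs in them therefore follow from the choice and do not show how frequent the pair is. Each line gives 300 bases of the RefSeq sequence of GRCm38.p6, 250 before and 50 after the annotated start, in the direction of transcription: Top2a at chr11:99024140-99024439, Mki67 at chr7:135716330-135716629 and Mcm2 at chr6:88898731-88899030, all on the minus strand. Capitals mark TTTGAA, the letters of the cell cycle homology region, and CCAAT, the CCAAT box, on either strand (TTCAAA and ATTGG are their reverse complements).
Top2a: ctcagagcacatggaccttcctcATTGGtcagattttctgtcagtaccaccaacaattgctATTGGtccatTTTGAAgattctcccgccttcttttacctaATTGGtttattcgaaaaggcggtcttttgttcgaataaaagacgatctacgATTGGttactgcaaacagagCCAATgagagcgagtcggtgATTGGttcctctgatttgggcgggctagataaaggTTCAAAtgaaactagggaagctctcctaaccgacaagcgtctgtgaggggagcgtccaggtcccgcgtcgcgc
Mki67: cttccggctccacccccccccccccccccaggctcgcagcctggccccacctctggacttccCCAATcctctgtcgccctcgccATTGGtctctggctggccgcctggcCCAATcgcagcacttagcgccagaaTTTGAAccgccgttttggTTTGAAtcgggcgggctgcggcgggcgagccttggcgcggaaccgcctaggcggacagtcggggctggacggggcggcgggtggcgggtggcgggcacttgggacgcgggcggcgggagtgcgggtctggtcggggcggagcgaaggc
Mcm2: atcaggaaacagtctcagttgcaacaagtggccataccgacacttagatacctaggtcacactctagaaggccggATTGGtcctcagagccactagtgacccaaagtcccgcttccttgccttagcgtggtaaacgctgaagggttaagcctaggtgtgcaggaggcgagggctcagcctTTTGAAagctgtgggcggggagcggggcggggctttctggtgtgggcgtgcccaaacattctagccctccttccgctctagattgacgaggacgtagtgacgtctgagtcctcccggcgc
Both motifs were present in 14 of the 28 cell cycle genes matched to a promoter by symbol (50%), of 35 tested, and in 2155 of 27025 promoters of all genes (7.97%). TTTGAA was in 14 of the 28 (50%) against 20.2% of all, and CCAAT in 23 (82.1%) against 41.1%. Adjacent matches of the 2 motifs can share 1 base. A match describes the letters only and is no measure of binding.

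Estrogen targets, by which sham library 4 had been singled out as well, were also highest in that library, but varied within both groups beyond it. Of 27 tested, 8 were positive with a median of -0.56, and 12 with a median of -0.07 without that library, in which 18 of the 27 were highest. Padi1, a peptidylarginine deiminase, was at 59.4, 25.1, 11.4 and 7.25 CPM in eutopic and at 8.59, 64.8, 106 and 161 CPM in sham uterus. Greb1, an estrogen receptor target that binds the receptor, was at 69.8, 25.7, 20.3 and 19 against 22.8, 60.7, 71.6 and 104 CPM. The aquaporin Aqp5 was at 27.2, 19.4, 9.73 and 6.14 against 7.5, 31.3, 40.8 and 41.3 CPM. In all 3 genes eutopic library 1 lay with or near sham libraries 2, 3 and 4, and sham library 1 lay with the low eutopic libraries, so a high and a low level occurred in each group.

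Some large differences of this list had their size from the 1 library. Lcn2 had a log2 difference of -2.75 ± 1.07 that was -0.09 ± 0.73 without sham library 4, and Ramp3, a co-receptor for adrenomedullin, had -1.86 ± 0.63 that was -0.49 ± 0.40, with 197 CPM in that library against 11.7 to 34.8 CPM in the other 7. Padi4, a further peptidylarginine deiminase, had -1.80 ± 0.66 and -0.05 ± 0.28. Igf1, the stromal growth factor through which estrogen drives epithelial division, went the other way and was lowest in sham library 4, at 299 CPM, against 603 to 1055 CPM in the other 7. The letters of the consensus palindromic estrogen response element, sought on both strands, were in the promoter window of 0 of 21 matched members and of 0.074% of all promoters.

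Progesterone targets stood higher in eutopic uterus for 21 of 26 members, with a median of 0.27 and, without sham library 4, again 21 of 26 with a median of 0.13 (all genes 0.00). Their summed level was 3656 to 4401 CPM in eutopic libraries, 3593 to 3846 CPM in sham libraries 1 to 3 and 2013 CPM in sham library 4, where 20 of the 26 were lowest. Il13ra2, a decidual and stromal receptor induced by progesterone, was at 49.0, 45.7, 46.4 and 52.3 CPM in eutopic and at 27.4, 27.8, 39.4 and 3.66 CPM in sham uterus. Its groups did not overlap with or without sham library 4, and its difference was 0.98 ± 0.42 with it and 0.61 ± 0.17 without it (edgeR, unadjusted p = 0.00304, adjusted p = 1).

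Other progesterone targets overlapped. Calca, the calcitonin gene that rises in the uterus before implantation, was at 0.698, 14.6, 2.74 and 9.15 CPM in eutopic and at 2.76, 2.14, 1.21 and 0.0551 CPM in sham uterus, high in eutopic libraries 2 and 4. Fkbp5, a co-chaperone of steroid receptors, was at 55.7, 64.2, 62.3 and 50.6 against 59.8, 44.0, 39.4 and 18.8 CPM, and Calb1, a calcium-binding protein of the epithelium, at 357, 399, 604 and 635 against 304, 366, 472 and 168 CPM. Wnt4, which the stroma needs to decidualise, was the 1 member highest in sham library 4, at 40.9 CPM against 3.25 to 6.10 CPM in the other 7. Fst, follistatin, was at 5.29 CPM in that library and at 64.7 to 128 CPM elsewhere.

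**Figure D4:**
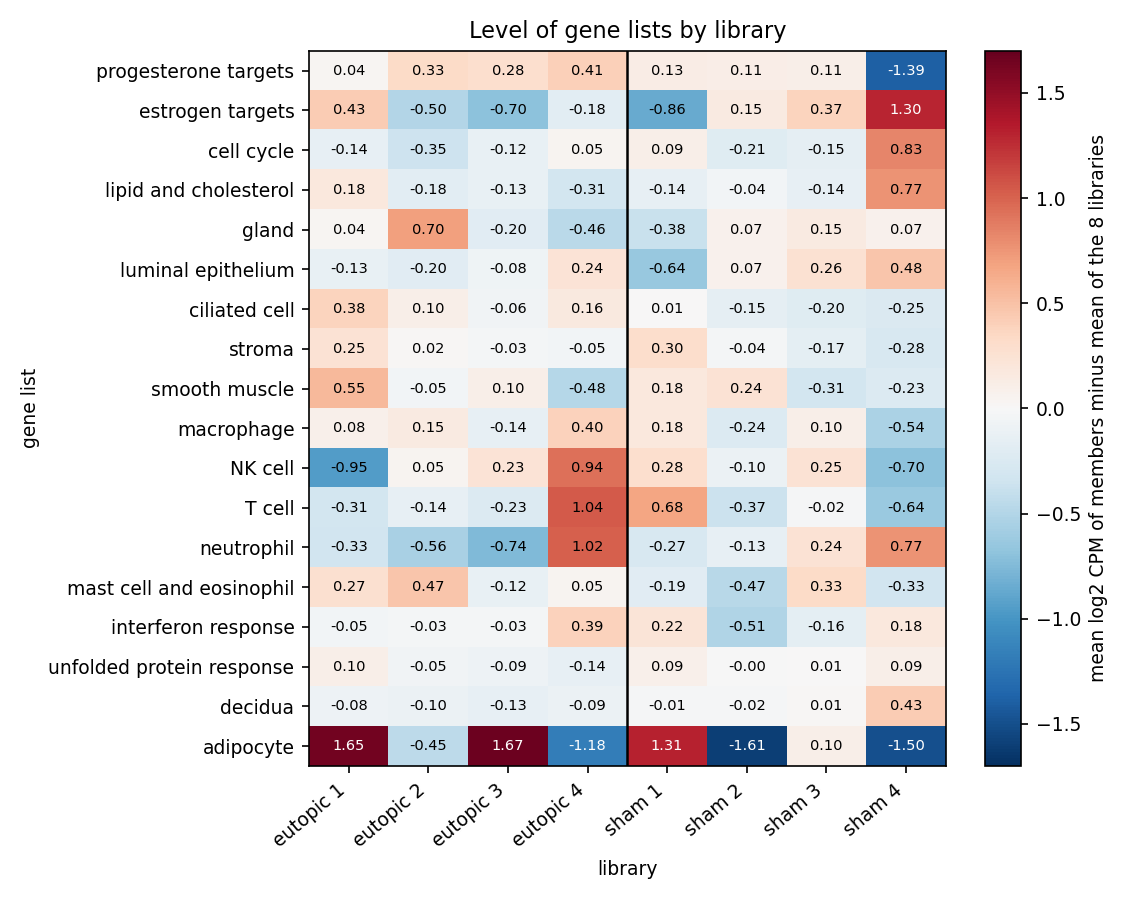
Level of 18 gene lists (rows) in the 8 libraries (columns), as the mean log2 CPM of the list's members less the mean of the 8 libraries. Sham library 4 holds the lowest value for progesterone targets (-1.39) and the highest for estrogen targets (1.30) and cell cycle genes (0.83), while eutopic library 4 holds the highest for NK cell, T cell and neutrophil genes.

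Genes of lipid and cholesterol synthesis followed the cell cycle list. 1 of 27 was positive with a median of -0.23, and 18 of 27 with a median of 0.04 without sham library 4, in which 21 were highest. Sqle, an oxygenase of cholesterol synthesis, was at 27.4, 18.2, 16.4 and 13.9 CPM in eutopic and 17.0, 18.9, 15.9 and 62.8 CPM in sham uterus. Luminal epithelium genes had 7 of 25 positive and a median of -0.25, and 15 of 25 and 0.02 without that library. In the Wnt list the secreted inhibitor Wif1 was at 38.0 CPM in sham library 4 and at 0.0372 to 0.458 CPM in the other 7. There 15 of 31 genes were positive (median -0.07), and 24 of 31 (0.08) without sham library 4. Slc40a1, the iron exporter ferroportin, was at 54.6, 24, 34.7 and 30.1 CPM in eutopic and 30.9, 50.6, 77.2 and 255 CPM in sham uterus.

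Leukocyte lists were mostly on the higher side in eutopic uterus while sham library 4 was counted. Macrophage genes had 20 of 21 positive with a median of 0.19, and 14 of 21 with 0.05 without it. Their summed level was 1434 to 2170 CPM in eutopic libraries, 1525 to 1913 CPM in sham libraries 1 to 3 and 1066 CPM in sham library 4. Lyz2, lysozyme of macrophages, was at 169, 240, 177 and 379 CPM in eutopic and 253, 169, 200 and 134 CPM in sham uterus. NK cell genes had 16 of 17 positive (median 0.22) and 10 of 17 (0.01) without that library, and T cell genes 15 of 21 (0.30) and again 15 of 21 (0.12). Eutopic library 4 was the highest for these lymphoid genes: Gzmc, a granzyme of uterine NK cells, stood at 26.4 CPM in it and at 2.85 to 9.61 CPM in the other 7. The neutrophil alarmin S100a8 reached 4.95 CPM in eutopic library 4, where the other 7 libraries ran from 0.199 to 1.27 CPM.

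Mast cell and eosinophil genes kept the larger part of their median without sham library 4, at 15 of 20 positive with 0.44 in the fit of all libraries and 15 of 20 with 0.26 without that library. Cma1, the mast cell chymase, was at 7.16, 7.70, 7.47 and 4.41 CPM in eutopic and at 3.52, 1.68, 5.66 and 3.36 CPM in sham uterus, a log2 difference of 0.91 ± 0.37 (0.88 ± 0.41 without sham library 4). Mcpt4, a mast cell protease, was at 8.29, 9.47, 9.31 and 4.17 against 4.14, 1.58, 6.18 and 4.76 CPM, and Cpa3, the mast cell carboxypeptidase, at 7.99, 8.62, 7.89 and 3.22 against 3.96, 1.81, 5.67 and 3.58 CPM. Eutopic libraries 1 to 3 were above every sham library in all 3 genes, and eutopic library 4 lay within the sham range. The list as a whole did not separate the groups. With equal weight per member, as mean log2 CPM less the mean of the 8 libraries, eutopic libraries stood at 0.27, 0.47, -0.12 and 0.05. Sham libraries stood at -0.19, -0.47, 0.33 and -0.33, and 5 of the 20 members were lower in eutopic uterus. The summed level was 987 to 1065 CPM in eutopic and 725 to 1256 CPM in sham uterus, highest in sham library 3. That sum was mostly Hdc (145 to 478 CPM), Gata2 (217 to 375 CPM) and Alox15 (105 to 332 CPM), and says little of the mast cell proteases.

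Ciliated cell genes had 15 of 22 positive with a median of 0.27, and 17 of 22 with 0.29 without sham library 4. Cfap43, a protein of the ciliary axoneme, was at 7, 14, 5.47 and 6.64 CPM in eutopic and at 4.92, 5.48, 3.59 and 2.81 CPM in sham uterus (0.98 ± 0.29, and 0.83 ± 0.29 without that library). Eutopic library 3 and sham library 2 were nearly level, and the groups overlapped there alone. Foxj1, the master regulator of motile cilia, did not follow, at 2.75, 0.727, 1.7 and 1.13 against 1.34, 0.966, 1.38 and 8.38 CPM. The summed level of the list was 138 to 185 CPM in eutopic and 158 to 192 CPM in sham uterus. That sum was mostly the 1 gene Tppp3, at 79.8 to 144 CPM. With equal weight per member, as mean log2 CPM less the mean of the 8 libraries, eutopic libraries stood at 0.38, 0.10, -0.06 and 0.16. Sham libraries stood at 0.01, -0.15, -0.20 and -0.25, and the groups overlapped through eutopic library 3 and sham library 1.

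Interferon response genes had 18 of 28 positive with a median of 0.10, and 27 of 28 with a median of 0.21 once sham library 4 was left out (all genes 50.8% positive). Ddx58, the RNA sensor RIG-I, was at 93.4, 125, 120 and 125 CPM in eutopic and 115, 78.7, 85.9 and 67.2 CPM in sham uterus. Ifit3, an interferon-induced antiviral protein, was at 7.56, 5.97, 9.17 and 11.0 against 7.5, 3.95, 4.89 and 5.46 CPM, and its difference was 0.63 with and without that library. Sham library 1 lay within the eutopic range for both genes and sham libraries 2 and 3 below it. The members of the list are not independent of each other. As mean log2 CPM less the mean of the 8 libraries, the list stood at 0.22 in sham library 1, above eutopic libraries 1 to 3 (-0.05, -0.03 and -0.03). Its extremes were eutopic library 4 (0.39) and sham library 2 (-0.51). Unfolded protein response genes had 7 of 23 positive (median -0.11) and 4 of 23 (-0.08) without sham library 4.

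Cytokine and prostaglandin genes gave few separate groups. Il15, the cytokine that NK cells of the uterus depend on, was at 4.88, 5.90, 6.25 and 10.6 CPM in eutopic and at 8.94, 12.6, 11.5 and 9.25 CPM in sham uterus. Eutopic libraries 1 to 3 were below all sham libraries and eutopic library 4 was among them, and the difference was -0.61 ± 0.21 with and -0.67 ± 0.22 without sham library 4. Ptger1, a prostaglandin E2 receptor, was at 7.61, 7.46, 7.25 and 5.56 against 4.56, 5.08, 4.26 and 7.72 CPM. Sham library 4 was the highest of the 8 for it, and without that library the groups did not overlap (0.37 ± 0.19 with, 0.59 ± 0.16 without). Il15 and Ptger1 had adjusted p-values of 0.993 and 1 in edgeR with and without it.

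Some lists were set by single libraries of another kind. Adipocyte genes had 12 of 13 positive (median 0.48; 0.62 without sham library 4), but Adipoq, the fat cell hormone adiponectin, was at 12, 1.52, 12.8 and 0.595 CPM in eutopic and 8.83, 0.147, 1.85 and 0.165 CPM in sham uterus. It was high in eutopic libraries 1 and 3 and sham library 1, and so were Plin1, the coat protein of fat droplets, and Cfd, the fat cell protease adipsin. The part of fat or leukocytes in the samples in the other differences was not tested. The gland proteases Prss28 and Prss29, which are secreted around implantation, were at 7.68 and 17.3 CPM in eutopic library 2 and at no more than 0.0545 and 0.0630 CPM in the other 7 libraries of 3 months. At 1 month Prss29 was found in all 8 uterine libraries, at 0.402 to 24.5 CPM.

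Genes of the tissue's own layers differed little. Stroma genes had 14 of 20 positive with a median of 0.14, and 14 of 20 with 0.07 without sham library 4. Hoxa11, a homeobox gene of the uterine stroma, was at 259, 283, 284 and 317 CPM in eutopic and at 295, 279, 236 and 128 CPM in sham uterus, and only sham library 4 lay clearly below the rest. Smooth muscle genes had 13 of 16 positive (0.11, and 12 of 16 with 0.05 without that library). Vascular endothelium genes had 7 of 18 positive (-0.03) and 5 of 18 (-0.06) without it, and lymphatic endothelium genes 5 of 12 (-0.06) and 3 of 12 (-0.11). Cldn5, the tight junction claudin of endothelium, was at 20.4, 19.5, 24.9 and 20.7 against 26.2, 25.8, 28.3 and 22.3 CPM, and its difference was -0.26 ± 0.12 with and -0.32 ± 0.12 without sham library 4.

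Matrix genes, which fibrosis raises, had 20 of 31 positive with a median of 0.08, and 15 of 31 with -0.01 without sham library 4. Postn, the matrix protein periostin, was at 801, 635, 648 and 367 CPM in eutopic and at 452, 465, 347 and 236 CPM in sham uterus. Eutopic libraries 1 to 3 were above every sham library and eutopic library 4 was within the sham range, with a difference of 0.71 ± 0.27 (0.54 ± 0.27 without sham library 4). Mmp3, the matrix protease stromelysin 1, was at 12.7, 17, 17.4 and 11.4 against 13.3, 7.5, 8.66 and 10.8 CPM (0.54 ± 0.22, and 0.58 ± 0.24).

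Gland genes had 9 of 19 positive with a median of -0.12, and 10 of 19 with 0.01 without sham library 4. Ion and water transport genes had 11 of 19 (0.07) and 10 of 19 (0.09). Cftr, the chloride channel of epithelial secretion, stood at 74.2 CPM in sham library 4 and at 2.03 to 7.24 CPM in the other 7, so that its difference of -2.32 ± 0.86 was 0.19 ± 0.41 without that library. Aqp8, an aquaporin, was at 7.81, 4.11, 0.34 and 0.372 CPM in eutopic and at 0.799, 18.3, 21.4 and 25.5 CPM in sham uterus. Its low sham library was library 1, as for Padi1, Greb1 and Aqp5, and its difference was -2.39 with and -2.09 without sham library 4. Decidua genes had 5 of 18 positive (-0.07) and 8 of 18 (-0.05), and the placental lactogen family gene Prl8a2, a marker of full decidua, was at 0 in all 8 libraries.

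The further stress and signalling lists given in this paragraph had medians from -0.06 to 0.20. Hypoxia and glycolysis genes had 5 of 18 positive (median -0.06) and 10 of 18 (0.02) without sham library 4, iron and oxidative stress genes 8 of 21 (-0.04) and 13 of 21 (0.01), and immediate early genes 14 of 20 (0.09) and 12 of 20 (0.09). Egr1, an immediate early factor close to Egr2, was at 55.7, 36, 45.7 and 37 CPM in eutopic and at 45.5, 21.4, 23.2 and 11 CPM in sham uterus, with sham library 1 inside the eutopic range (0.79 ± 0.36, and 0.54 ± 0.33 without sham library 4). Complement genes had 15 of 21 positive (0.12) and 11 of 21 (0.00), prostaglandin genes 14 of 21 (0.16) and 12 of 21 (0.10), and cytokine and chemokine genes 19 of 30 (0.20) in both fits. The list of uterine regulators had 10 of 20 positive (-0.01) and 12 of 20 (0.04).

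In the remaining lists groups without overlap were limited to Casq1 among skeletal muscle genes and to mt-Atp8, mt-Co2 and mt-Atp6 among mitochondrial transcripts, in both fits. B and plasma cell genes had 7 of 16 positive (median -0.04) and 5 of 16 (-0.11) without sham library 4, and their summed level was highest in sham library 1 (8803 CPM) and eutopic library 4 (7312 CPM). Dendritic cell and MHC class II genes had 12 of 16 positive (0.15) and 10 of 16 (0.02), and neutrophil genes 7 of 11 in both fits (0.33 and 0.22). Mesothelium genes had 9 of 12 positive in both fits (0.13 and 0.12), oviduct genes 3 of 6 (0.15) and 6 of 6 (0.20), ovary and steroid synthesis genes 3 of 9 (-0.11) and 5 of 9 (0.01), and skeletal muscle genes 5 of 9 in both (0.18 and 0.23). Red blood cell genes had 5 of 8 (0.22) and 6 of 8 (0.26), embryo genes 1 of 3 (-0.03) and 0 of 3 (-0.15), and mitochondrial transcripts 5 of 12 (0.00) and 7 of 12 (0.02).

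**Figure D5:**
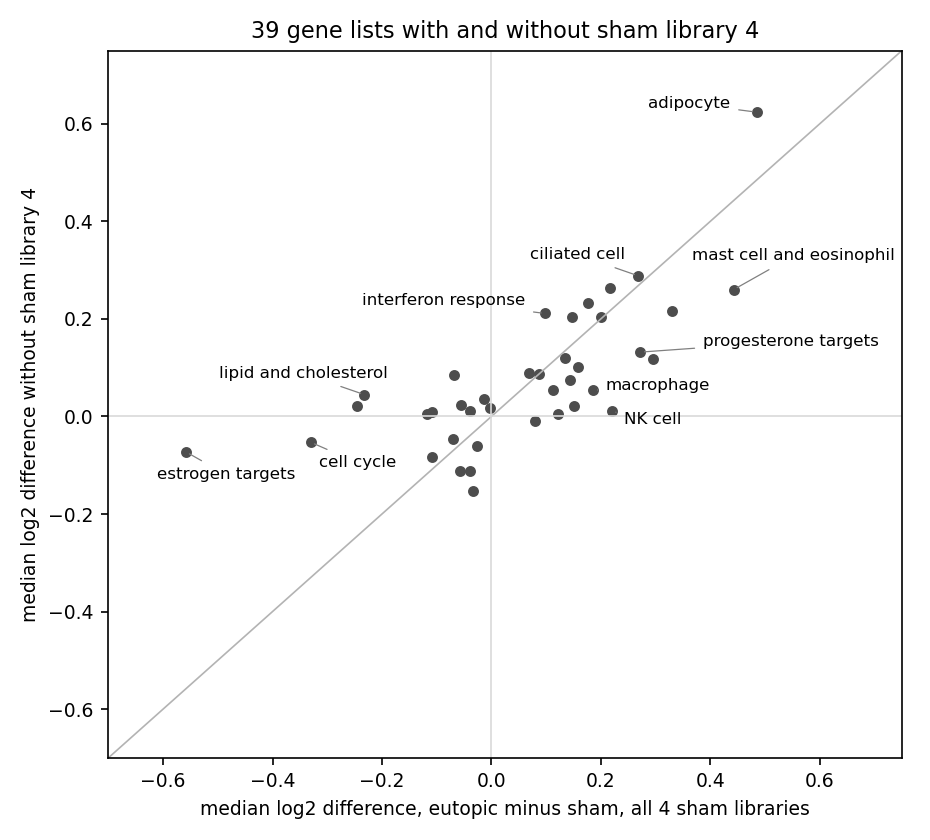
Median log2 difference between eutopic and sham uterus of 39 gene lists with all 4 sham libraries (horizontal axis) and without sham library 4 (vertical axis), 1 point per list, with a line where both are equal. Points for cell cycle, estrogen target, macrophage and NK cell genes lie near 0 on the vertical axis only, while the ciliated cell (0.27 and 0.29) point lies near the line.

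The change of the difference between eutopic and sham uterus from 1 to 3 months was tested in the same 16 libraries. edgeR called 2 of 21208 genes (0.00943%), both through their level at 1 month, and 736 genes had an unadjusted p under 0.05. With all 24 libraries in the fit it called 0. Ifi202b, an interferon-inducible DNA sensor, was at no more than 0.0735 CPM in all 8 libraries of 3 months, where the groups overlapped, while the 4 eutopic libraries of 1 month held 10.5 to 12.3 CPM. The processed pseudogene Gm13736 was at 0.26 to 0.52 CPM at 3 months. At 3 months, then, neither transcript separated eutopic from sham uterus. Serpina3n and Pde1c, described above for their differences at 3 months, had log2 differences of 1.08 and 0.48 at 1 month, and their changes between the times were not called (edgeR, adjusted p = 0.980 for both).

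Genes of chromosome 8 were frequent among those with the smallest p, a pattern looked at after the values were seen. Of the 100 genes with the smallest p, 10 were on this chromosome, which holds 5.04% of the genes tested, and without sham library 4 there were 19 of 100, with 8 in both sets. Chromosome 6 held 11 of 100 in both fits, for 5.73% of the genes tested. With all libraries chromosome 10 held 9 of 100, for 4.61% of the genes tested, and chromosome 19 held 7, for 3.22%. Chromosome 8 therefore did not stand out from these among the 100 genes of that fit. Among the 50 genes with the smallest p in it, chromosome 8 held 8, and chromosomes 6, 10 and 19 held 6, 6 and 2. Without sham library 4 chromosomes 10 and 19 held 6 and 4 of 100. In the order of genes given by GENCODE vM21 for GRCm38, 7 of the 10 lay in a run from Zfp868 to Calr3, which also holds Tmem221 and B3gnt3. The run takes in 119 of the 1069 tested genes of this chromosome. Its ends are themselves among the 10 genes and were set after the values were seen, so the count in this run is a description and no test. Without sham library 4 this run held 6 of the 19. The 10 went in both directions, 7 higher and 3 lower in eutopic uterus. Mri1 lies on the same chromosome outside that run. The mice are of a mixed C57BL/6 and SV129 background, and the part of inherited strain segments in these differences was not tested.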

How the data were processed

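The authors deposited 1 table of whole-number read counts, with 56691 genes in rows and the libraries in columns. Per the submitters' processing notes, bcl2fastq 1.9.0, STAR 2.7.9a, edgeR and genome build mm39 were used. How reads were assigned to genes, by which annotation and on which strand, is not given in the sources used here; overlapping genes, antisense genes and near-identical copies are therefore uncertain. No sequencing batch is given in the labels.

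The deposited counts went into edgeR 4.0.16 under R 4.3.3, with filterByExpr, TMM factors, 1 mean per group and the quasi-likelihood F-test, on the 16 uterine libraries of 1 and 3 months, and on 15 without sham library 4. Calls needed an adjusted p (Benjamini-Hochberg, over all genes tested) under 0.05. The procedure was tested on simulated data. Alternatives were DESeq2 1.42.0, DESeq2 size factors, no low-count filter, limma 3.58.1 (voom with sample weights), all 24 libraries, the compared groups only, a replicate block and each library left out. The change between times without each library of 3 months, and list medians under all alternatives, were added after seeing the data.

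The libraries, the 39 gene lists (796 of 802 entries in the table) and the tests were chosen with earlier results of these data known. The text names a panel of 7 genes, the 8 higher and 8 lower protein coding genes with the smallest p at a mean log2 CPM of at least 1, up to 12 called by any tool, the 5 higher and 5 lower without sham library 4, the 6 farthest above and below in that library (1 of them is not reported here), and up to 4 members of a list by p. Other named genes were chosen after their values were seen: among them Areg, Mki67, Top2a, Greb1, Aqp5, Igf1, Fst, Sqle, Lyz2, Gzmc, S100a8, Foxj1, Adipoq, Plin1 and Cfd. Promoters came from RefSeq (GRCm38.p6) by symbol, and no coordinate was carried between builds. The precision of each difference rests on 4 libraries per group.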

Additional observations from a re-analysis of the deposited data

Results flagged for a closer look

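In 138 groups of 4 libraries (60 of single genes, 78 of lists), 15 had 1 library set far from the other 3, where chance gives about 5% of groups, or about 1 in 20. 7 of the 15 were in sham library 4. The 5% rate assumes independent groups that were not chosen by their values. Here many genes were chosen by a small p, lists share members, and sham library 4 had been singled out beforehand. The count is therefore a description and no test. For single genes these were Gjb2 in sham library 4 (242 CPM), Scoc in sham library 4 (21.5 CPM, below the others), Egr2 and Ide in sham library 1 (3.07 and 196 CPM), and Serpina3n and Hebp2 in eutopic library 2 (74.3 and 12.2 CPM).

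The list values are the mean log2 CPM of the members less the mean of the 8 libraries. In sham library 4 they were -1.39 for progesterone targets, -0.094 for uterine regulators, 0.43 for decidua, 0.77 for lipid and cholesterol and 0.18 for hypoxia and glycolysis genes. In sham library 1, gland genes were at -0.38 and B and plasma cell genes at 0.52. In eutopic library 4, T cell genes were at 1.04 and interferon response genes at 0.39. Some of these deviations were small.

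The difference between eutopic and sham uterus at 3 months less that at 1 month was -7.99 for Ifi202b and -4.14 for Gm13736 on the log2 scale, by the edgeR test of that change itself.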

How the results depend on the processing

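Genes called between eutopic and sham uterus numbered 0 in edgeR, 11 in DESeq2, 4 in limma voom and 2 (Gdpd3 and Rtraf-ps) when the fit held the 2 compared groups alone. Without sham library 4 they numbered 0, 12, 3 and 4. The change between times had 2 calls, 6 in DESeq2, 0 with all 24 libraries and 2 to 3 with each library left out in turn. Leaving out each library kept the other 2 counts at 0 to 0, while genes at an unadjusted p under 0.05 ran from 572 (without sham library 4) to 2303 (without sham library 1), against 1007. The other settings left these counts as they were. With a replicate block the counts were 0, 0 and, for the change between times, 0. The values gave no clear sign that the numbers pair the libraries. Same-numbered libraries correlated at -0.055, 0.181, -0.070 and -0.143 in their deviations from the group means, and only replicate 2 was most like its own number. With 4 libraries per group these correlations cannot settle whether same-numbered libraries were handled together.

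Of 450 values of 30 named genes under 15 alternatives, 429 kept direction and call, 7 gained a call (6 by DESeq2, and Gdpd3 with only the compared groups) and 14 reversed in 5 panel genes. With limma voom Esr1 was 0.086 and Foxa2 -0.17, and Ihh was 0.023 under the replicate block. With each library left out Pgr ran from -0.57 to 0.012, Esr1 from -0.25 to 0.083 (0.0045 without eutopic library 4), Ihh from -0.45 to 0.14, Lif from -0.69 to 0.11 (0.07 without eutopic and 0.02 without sham library 3) and Foxa2 from -0.13 to 0.21 (-0.07, -0.05 and -0.03 without eutopic libraries 1 and 3 and sham library 1). The cause was not tested. Of 585 list medians 8, in 7 lists, moved by more than the spread between libraries. Depth limits transcripts under about 0.06 CPM, the level of 3 counts.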
